A study of Homo sapiens with 4 samples.

Results

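The genes described here are 8 that define or read out hormone-responsive luminal breast epithelium: ESR1, PGR, FOXA1, GATA3, GREB1, XBP1, PRLR and FKBP5. Their listed sites were chosen by position alone, as every summit of the deposited peak list within 10 kb of a gene interval in hg19 given to the nearest kb, and 139 of 371521 summits met this rule. A summit is a local maximum of reads, and the 139 lay in 81 of the list's 197823 regions. The list comes from ATAC-seq, in which Tn5 transposase cuts accessible DNA, on T47D-MTVL cells, a luminal breast cancer line with 1 integrated luciferase reporter behind the MMTV promoter. The groups were 2 samples with an shRNA against multiple H1 variants (phenotype knock-down) and 2 with a random shRNA (phenotype control). No hormone or drug treatment, and no clone, is named in the labels. Only 1 list was used for all 4 samples, with no value per sample, so neither group's level nor a spread between replicates can be given at any gene. The list's track line names RDsh, the control's label, and an shRNA name that the labels do not use, which is assumed to be the H1 knock-down. It calls the list differential against RDsh. If sites open in both groups were left out of it, the counts and the stretches without summits below would miss them, and this was not tested.

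ESR1 encodes the estrogen receptor alpha and PGR the progesterone receptor, which are ligand-activated transcription factors of the nuclear receptor family. FOXA1 is a pioneer factor: it binds its forkhead motif in compact chromatin and opens sites that the estrogen receptor then uses, and GATA3, a zinc finger factor of luminal identity, acts with both. FOXA1 has a winged-helix fold that resembles the globular domain of linker histone H1. GREB1 and XBP1 are known estrogen receptor targets, PRLR is the prolactin receptor, and FKBP5, a co-chaperone of steroid receptors, is a classic target of progesterone, glucocorticoid and androgen receptors. No RNA was measured here, so the luminal label could not be checked. Each of the 8 genes had at least 1 listed summit, but so did 32.8% (FOXA1) to 78.9% (ESR1) of windows of the gene's length on its chromosome, so this says little about the label.

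The 8 genes differed widely in how many summits they held. GATA3 had 50 summits, FKBP5 31, FOXA1 29, GREB1 12, PGR 7, PRLR 5, ESR1 4 and XBP1 1. GATA3, FOXA1 and FKBP5 together held 110 of the 139 (79.1%), and the other 5 genes held 29. Per 100 kb of interval with its flanks, GATA3 had 119 summits (95% exact Poisson interval 88.4 to 157, which covers counting error only, here and below) and FOXA1 had 90.6 (60.7 to 130.2). Next came FKBP5 with 17.6 (11.97 to 25.001), GREB1 with 9.30 (4.81 to 16.2), PGR with 5.79 (2.33 to 11.9), XBP1 with 3.70 (0.0938 to 20.6), PRLR with 2.46 (0.800 to 5.75) and ESR1 with 0.922 (0.251 to 2.36). FOXA1 and FKBP5 were the only neighbours in this order whose intervals did not overlap. The intervals treat summits as independent, but the 139 summits share 81 regions. They are thus likely too narrow, here and below, and do not by themselves separate genes. With these flanks GATA3 and FOXA1 thus led, while the estrogen receptor gene itself was last, over the longest interval (434 kb with flanks). The order turns with the flanks. Without them FOXA1 had 20 summits in 12 kb and was denser than GATA3, with 18 in 22 kb. XBP1, with 1 in 7 kb, then lay above FKBP5, with 20 in 156 kb. ESR1 was last either way. The list as a whole had 12.4 summits per 100 kb, and with these flanks 3 of the 8 genes lay above that level. Without flanks XBP1 did too, by its 1 summit. Pooled over 1164 kb, the 8 genes had 11.9 per 100 kb, which is 0.967 times the level of the list. This ratio was 1.497 without ESR1 and 0.642 without GATA3.

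**Figure D1:**
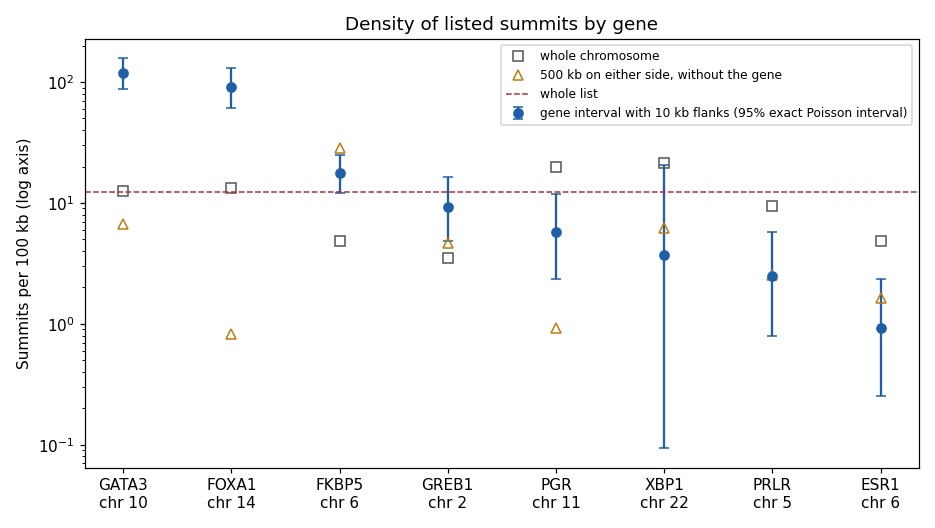
Summits per 100 kb on a log axis for each gene interval with 10 kb flanks (blue points, bars are 95% exact Poisson intervals), its chromosome (squares) and the 500 kb on either side without the gene (triangles), with the whole list as a dashed line. GATA3 at 119 and FOXA1 at 90.6 lie above all 3 references, and PRLR at 2.46 and ESR1 at 0.922 lie below the chromosome and the list.

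Relative to their chromosomes the first 5 genes of this order were the same, and XBP1 was last in place of ESR1. GATA3 was 9.45 times as dense as chromosome 10 and FOXA1 6.77 times as dense as chromosome 14, whereas FKBP5 was 3.63 times as dense as chromosome 6 and GREB1 2.66 times as dense as chromosome 2. ESR1, on the same chromosome as FKBP5, was at 0.190 times its level. PGR, PRLR and XBP1 were at 0.291, 0.261 and 0.172 times the levels of chromosomes 11, 5 and 22. Of consecutive windows of the same length on the same chromosome, 2.60% held as many summits as GATA3 or more, 3.34% as many as FOXA1, 6.69% as many as FKBP5 and 9.76% as many as GREB1. Among windows with at least 1 summit these shares were 5.24%, 10.2%, 11.2% and 19.6%. For the sparse genes the shares over all windows were 39.7% for PGR, 42.8% for PRLR, 44.2% for XBP1 and 55.6% for ESR1. Among windows with at least 1 summit they were 54.5%, 55.1%, 100% and 70.4%.

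Set against their surroundings the genes differed again. Within 500 kb on either side of FOXA1 only 8 further summits were listed (0.816 per 100 kb), against 29 at the gene, a ratio of densities of 111. GATA3 was 17.7 times and PGR 6.30 times as dense as their surroundings, which had 66 and 9 further summits. GREB1 stood at 1.98 times its surroundings. FKBP5 lay in a stretch with 280 further summits (28.6 per 100 kb) and was at 0.616 times that level. PRLR, XBP1 and ESR1 were at 0.966, 0.595 and 0.565 times theirs. FOXA1, GATA3 and PGR thus stood above sparser surroundings, although PGR was at 0.291 times the level of its chromosome and 0.468 times that of the list. FKBP5 was a dense gene within a denser neighbourhood. How often other windows reach such ratios to their surroundings was not computed.

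The strength of a summit is its pileup, the number of reads stacked over it, which was recovered from the deposited fold and p-value. The same background of 2.01 reads fitted all 139 summits here, and for the tallest summits of the list it was assumed. A fold here is thus a multiple of a common read level and not of the control cells. A change of 1 read changes the fold by 0.332. Pileups at the 8 genes ran from 10 to 31 reads (folds of 3.66 to 10.6) with a median of 16, against a median of 15 in the list, whose lowest pileup is also 10. Of the 139 summits, 32 had 20 reads or more (23.0%, 95% Wilson interval 16.8 to 30.7%), against 26.5% of all listed summits, a share near the background. The tallest summit at these genes had 31 reads, a level reached by 5.49% of all listed summits. At the lowest listed pileup of 10 sat 15 of the 139 (10.8%), as did 8.36% of the list. Of these 32, 17 were at GATA3, 8 at FKBP5 and 5 at FOXA1, with 1 each at PGR and XBP1 and none at ESR1, GREB1 or PRLR. As a share of the gene's own summits that is 34.0% at GATA3 (22.4 to 47.8%), 25.8% at FKBP5 (13.7 to 43.2%) and 17.2% at FOXA1 (7.60 to 34.5%), and each interval holds the list's 26.5%. Medians by gene were 17 reads at GATA3, 16 at FOXA1, FKBP5 and PGR, 14.5 at GREB1, 14 at ESR1 and 10 at PRLR. These ranges overlap throughout, apart from the 1 summit of XBP1 at 24 reads, which lies above every summit of ESR1, GREB1, PRLR and PGR.

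**Figure D2:**
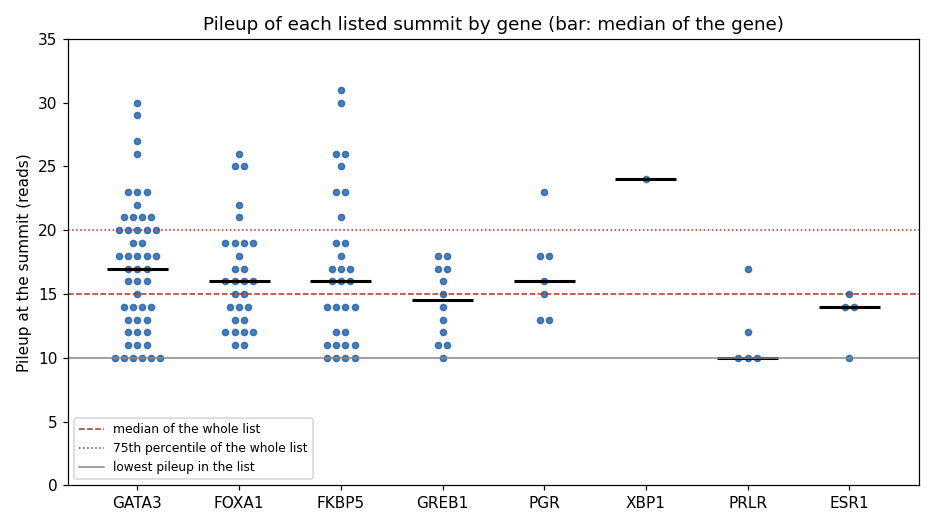
Pileup in reads of every listed summit by gene (points), with the gene's median as a black bar, the list's median (15) and 75th percentile (20) as red lines and the list's lowest pileup (10) in grey. The tallest summits are at FKBP5 (31 reads) and GATA3 (30), while all summits of ESR1, GREB1 and PRLR stay at 18 reads or fewer.

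Where summits lay within the genes was examined from the 5' end of each interval. In kb of hg19, the intervals of the genes on the plus strand are 152011 to 152425 on chromosome 6 for ESR1, 8096 to 8118 on chromosome 10 for GATA3 and 11674 to 11783 on chromosome 2 for GREB1. Those of the genes on the minus strand, whose 5' end is the higher number, are 100900 to 101001 on chromosome 11 for PGR, 38058 to 38070 on chromosome 14 for FOXA1, 29190 to 29197 on chromosome 22 for XBP1, 35048 to 35231 on chromosome 5 for PRLR and 35541 to 35697 on chromosome 6 for FKBP5. Exons and introns were not placed, because no annotation of this build was used. The RefSeq gene differs in length from the interval at ESR1 (473 against 414 kb), GREB1 (160 against 109 kb), GATA3 (29.9 against 22 kb) and FOXA1 (5.70 against 12 kb), so distances there are from the interval and not from a known start. A summit stood within 2 kb of the 5' end in 6 of the 8 genes. Of all bases spanned by the list 12.9% lie that close to a summit, and 6.12% (chromosome 2) to 29.4% (chromosome 22) on the genes' chromosomes. That background is over all positions, and the share over gene starts was not computed. The 6 genes were FKBP5 (nearest at 104 bp, 19 reads), GATA3 (170 bp, 20 reads), XBP1 (390 bp, 24 reads), PRLR (729 bp, 10 reads), FOXA1 (854 bp, 14 reads) and PGR (1020 bp, 15 reads). At GREB1 the nearest summit was 7320 bp inside the interval (17 reads), and at ESR1 it was 74.2 kb inside (14 reads). The count of 6 genes uses 1 end per gene, and a gene can have other starts. In RefSeq's build 4 of the 6 ESR1 starts lie 115 to 119 kb after the start closest in length to the interval. Whether the ESR1 summits 116 to 118 kb inside the interval stand at such starts was not tested. Of all 139 summits, 41 lay before the 5' end, 87 inside the intervals and 11 beyond the 3' end. Those before the 5' end were at GATA3 (30), FKBP5 (10) and FOXA1 (1). At FOXA1 this split depends on the interval. Its 20 summits inside spanned 8.43 kb, more than the 5.70 kb of RefSeq's gene, so some of them lie outside that gene. A summit is assigned here by distance, so it need not act on the named gene. RefSeq places GATA3-AS1 and PGR-AS1 over parts of GATA3 and PGR, and names TTC6 and ARMC12 as the next genes beyond FOXA1 and FKBP5. In RefSeq's build TTC6 lies less than 1 kb from FOXA1 and ARMC12 less than 3 kb from FKBP5, both on the side of the 5' end. Some summits counted for FOXA1 and FKBP5 may therefore lie in or nearer to TTC6 and ARMC12. How many do was not tested, because no position was carried between the builds.

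**Figure D3:**
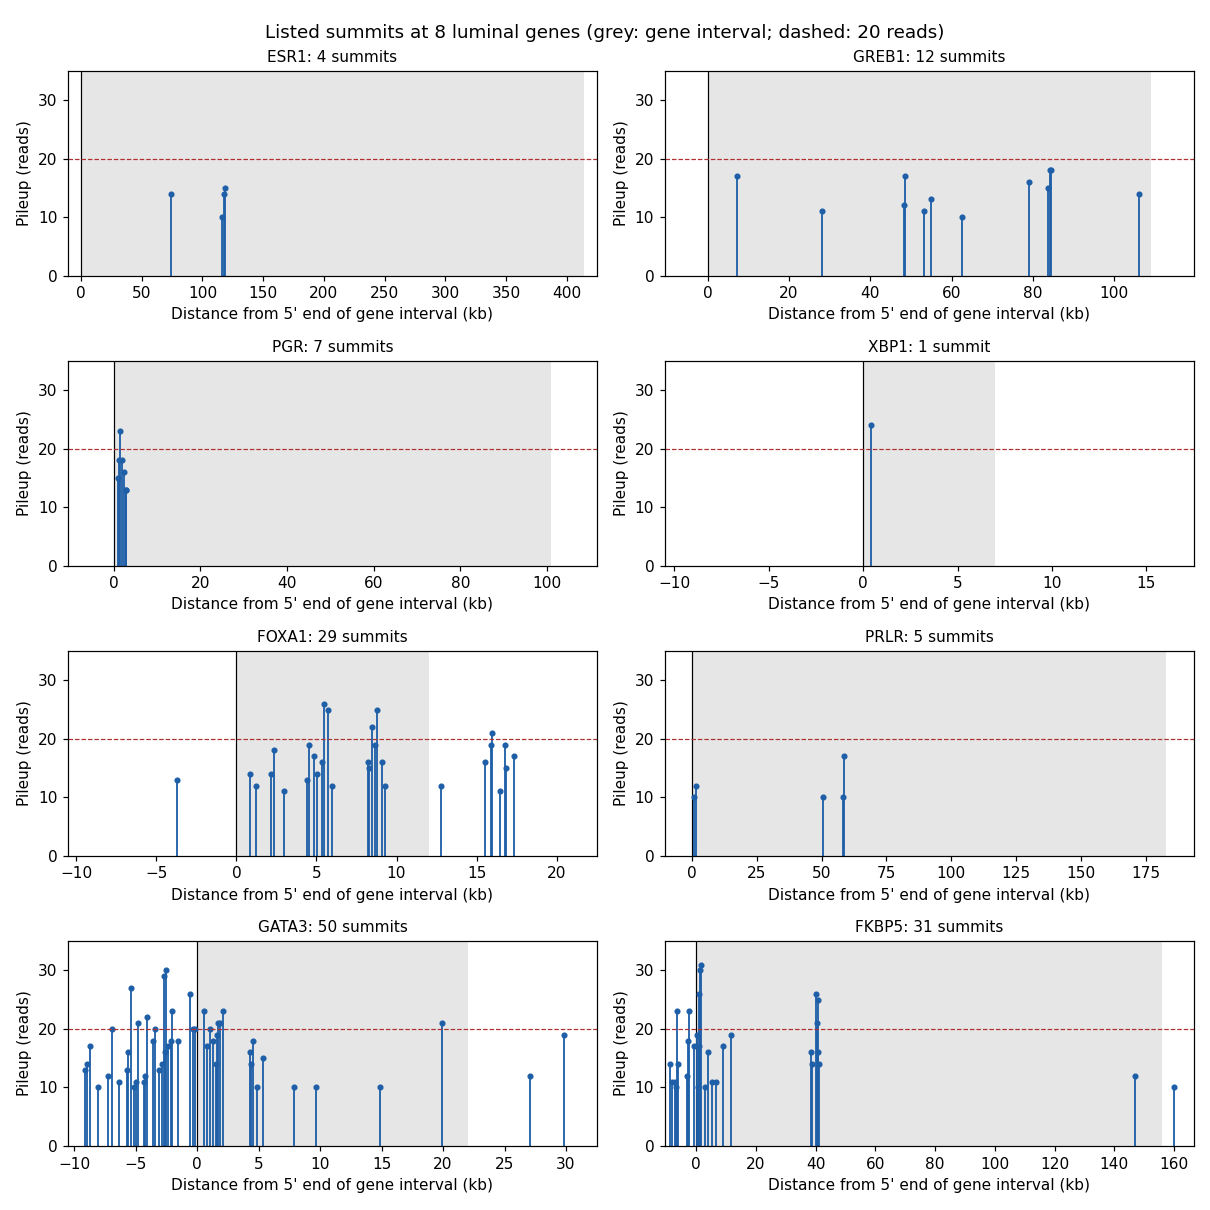
Pileup in reads of each listed summit against its distance in kb from the 5' end of the gene interval (grey), 1 panel per gene on its own distance scale, with a dashed line at 20 reads. PGR and XBP1 have summits only at the 5' end, GREB1 has them scattered through the gene, and ESR1 has 4 summits up to 118.5 kb and none after.

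For the 6 genes with a summit near the interval's 5' end, the 250 bases before a RefSeq transcription start are shown, read in the direction of the gene. At FOXA1 the interval's end is not its RefSeq start, so the summit counted there does not refer to the window shown. They are of GRCh38.p14, another build than the list, and no position was carried between the builds; where RefSeq gives several starts, the start whose distance to the gene's end was closest to the interval's length is shown. Capitals mark a single arm of the estrogen response element, GGTCA, or TGACC on the other strand.
PGR (chr11:101129814-101130063, minus strand): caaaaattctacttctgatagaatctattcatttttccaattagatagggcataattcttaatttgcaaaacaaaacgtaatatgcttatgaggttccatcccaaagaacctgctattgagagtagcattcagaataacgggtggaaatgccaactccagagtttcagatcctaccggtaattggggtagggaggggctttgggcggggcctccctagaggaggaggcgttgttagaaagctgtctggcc
FOXA1 (chr14:37595250-37595499, minus strand): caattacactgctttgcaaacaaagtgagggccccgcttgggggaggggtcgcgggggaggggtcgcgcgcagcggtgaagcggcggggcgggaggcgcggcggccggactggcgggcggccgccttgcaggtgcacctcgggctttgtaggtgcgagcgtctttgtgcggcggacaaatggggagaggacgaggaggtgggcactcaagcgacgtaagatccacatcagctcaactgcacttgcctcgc
GATA3 (chr10:8053391-8053640, plus strand): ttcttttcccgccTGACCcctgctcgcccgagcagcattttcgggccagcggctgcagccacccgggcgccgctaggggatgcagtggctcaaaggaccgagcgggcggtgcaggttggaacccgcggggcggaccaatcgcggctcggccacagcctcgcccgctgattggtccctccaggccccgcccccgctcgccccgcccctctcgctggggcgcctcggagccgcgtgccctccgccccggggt
XBP1 (chr22:28800570-28800819, minus strand): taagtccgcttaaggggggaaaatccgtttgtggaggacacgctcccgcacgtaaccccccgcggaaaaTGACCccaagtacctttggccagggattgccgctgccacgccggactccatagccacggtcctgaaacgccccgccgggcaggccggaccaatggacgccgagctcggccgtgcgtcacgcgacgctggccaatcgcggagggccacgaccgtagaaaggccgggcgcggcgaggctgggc
PRLR (chr5:35230488-35230737, minus strand): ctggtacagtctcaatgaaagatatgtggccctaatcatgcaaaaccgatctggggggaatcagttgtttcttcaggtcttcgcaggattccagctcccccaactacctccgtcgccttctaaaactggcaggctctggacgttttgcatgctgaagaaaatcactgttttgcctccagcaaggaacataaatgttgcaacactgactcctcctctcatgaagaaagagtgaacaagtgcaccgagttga
FKBP5 (chr6:35728584-35728833, minus strand): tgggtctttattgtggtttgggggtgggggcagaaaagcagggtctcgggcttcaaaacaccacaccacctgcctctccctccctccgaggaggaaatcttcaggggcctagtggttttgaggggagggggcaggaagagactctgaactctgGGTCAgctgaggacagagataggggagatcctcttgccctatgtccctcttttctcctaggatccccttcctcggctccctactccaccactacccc

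An arm was found in GATA3 (237 to 233 bases before the start), XBP1 (181 to 177) and FKBP5 (97 to 93), and in none of the printed windows of PGR, FOXA1 and PRLR. At PGR this turns with the start chosen: the windows of its other 2 starts each hold TGACC, 166 to 162 and 180 to 176 bases before the start, with a GC content of 64.4% and 63.6% and 12 CG dinucleotides each. Of 35116 windows of this kind in the table, 32.6% hold one, so the arm is common in such windows. None of the 6 held the full estrogen response element, 2 arms as GGTCA, any 3 bases, TGACC (0.0399% of all windows). Nor was there the hormone response element read by progesterone and glucocorticoid receptors, searched as ACA, any 3 bases, TGT (4.61%), the forkhead motif TGTTTAC (2.98%), the GATA motif AGATAA (9.17%) or TATAA (18.9%). Both strands were searched, and the only overlap among these motifs is that the full element contains the arm. The windows differed in composition. GC content was 74.8% at GATA3, 67.6% at XBP1 and 67.2% at FOXA1, against a median of 58% over all windows, and 57.6% at FKBP5, 47.6% at PRLR and 43.6% at PGR. The CG dinucleotide occurred 31 times at XBP1, 30 at GATA3 and 26 at FOXA1 but 6 times at PRLR, 5 at PGR and 3 at FKBP5, against a median of 11. Of the 8 genes, 7 were matched in the promoter table, all but GREB1.

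Among the receptors, ESR1 had the fewest sites for its length. Its 4 summits on chromosome 6 had pileups of 14 reads at 152085202, 10 at 152126771, 14 at 152128840 and 15 at 152129474, with folds of 4.99, 3.66, 4.99 and 5.32. The last 3 lay within 2.70 kb of each other, 116 to 118 kb from the 5' end of the interval. The gene is known for alternative promoters, and RefSeq gives it 6 transcription starts. In their own build 4 of these lie within 3.40 kb of each other and 115 kb or more after the start before them. Whether the last 3 summits stand at these starts was not tested, because no position was carried between the builds. From 152129474 to the end of the interval, 296 kb (71.4% of it), no summit was listed. No ESR1 region was wider than 241 bp.

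PGR had every summit packed near the 5' end of its interval. On chromosome 11 its 7 summits ran from 100998158 to 100999981, between 1.02 and 2.84 kb inside the interval, and had pileups of 13, 13, 16, 18, 23, 18 and 15 reads in order of position. The tallest stood in the middle of the group, at 100999574 (fold 7.98, −log10 q 14.6), in a region from 100999415 to 100999777. The 98.2 kb towards the 3' end, 97.2% of the interval, held no listed summit. The 3 RefSeq starts of PGR lie within 0.75 kb of each other.

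PRLR, the receptor for prolactin, had few and weak sites. On chromosome 5 a pair near the 5' end had 12 reads at 35229551 and 10 at 35230272. Further inside, 58.5 kb from the 5' end, a summit of 17 reads at 35172471 (fold 5.98) was the tallest of the gene, with summits of 10 reads at 35172708 and 35180500. Of its 5 summits, 3 thus sat at the lowest listed pileup, and 124 kb of the interval on the 3' side had none. The 2 RefSeq starts of PRLR lie 112 kb apart.

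GATA3 carried the widest region of the 8 genes and, with flanks, the largest number of summits. Without flanks it had 18, against 20 each at FOXA1 and FKBP5. A nearly continuous run of 46 summits, with no step over 3 kb, spanned 18.8 kb of chromosome 10 from 8086838 to 8105623, and 30 of the gene's 50 summits lay before the 5' end. The highest lay 2.54 kb before the interval's 5' end, at 8093457, with 30 reads (fold 10.3, −log10 q 22.3). RefSeq gives GATA3 6 starts, and in their own build 3 of them lie 8.31, 3.79 and 2.41 kb before the start matched by length, so sites before the interval are not before every start of the gene. It belongs to a region from 8092298 to 8094042 (1745 bp) whose 10 summits had 18, 20, 13, 14, 29, 16, 30, 17, 18 and 23 reads. The region at the 5' end, from 8096252 to 8098338, was the widest at 2087 bp, and its 9 summits had 23, 17, 20, 18, 14, 19, 21, 21 and 23 reads. The first of these is uneven with a pair of tall summits and the second is flat. The median pileup was 17 reads before the 5' end and 17.5 after it. Listed regions covered 22.9% of the GATA3 interval with its flanks, against 0.123% at ESR1. Past 8105623 only 4 summits followed, of which that at 8115912 had 21 reads.

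FOXA1 had its summits in 3 groups. Within the interval on chromosome 14, 20 summits ran from 38060721 to 38069147, and these held both wide regions. The region from 38063790 to 38065628 (1839 bp) had 8 summits of 12, 25, 26, 16, 14, 17, 19 and 13 reads, including the tallest of the gene at 38064500 (fold 8.98, −log10 q 17.8). The region from 38060589 to 38062294 (1706 bp) had 7 summits of 12, 16, 25, 19, 22, 15 and 16 reads. Another 8 summits lay beyond the 3' side, from 38052692 to 38057207, with 11 to 21 reads. A single summit of 13 reads stood 3.70 kb before the 5' end. RefSeq's FOXA1 is 5698 bp long, shorter than the interval of 12 kb, so the interval's 5' end is not taken as its transcription start. Listed regions covered 19.7% of the interval with flanks.

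**Figure D4:**
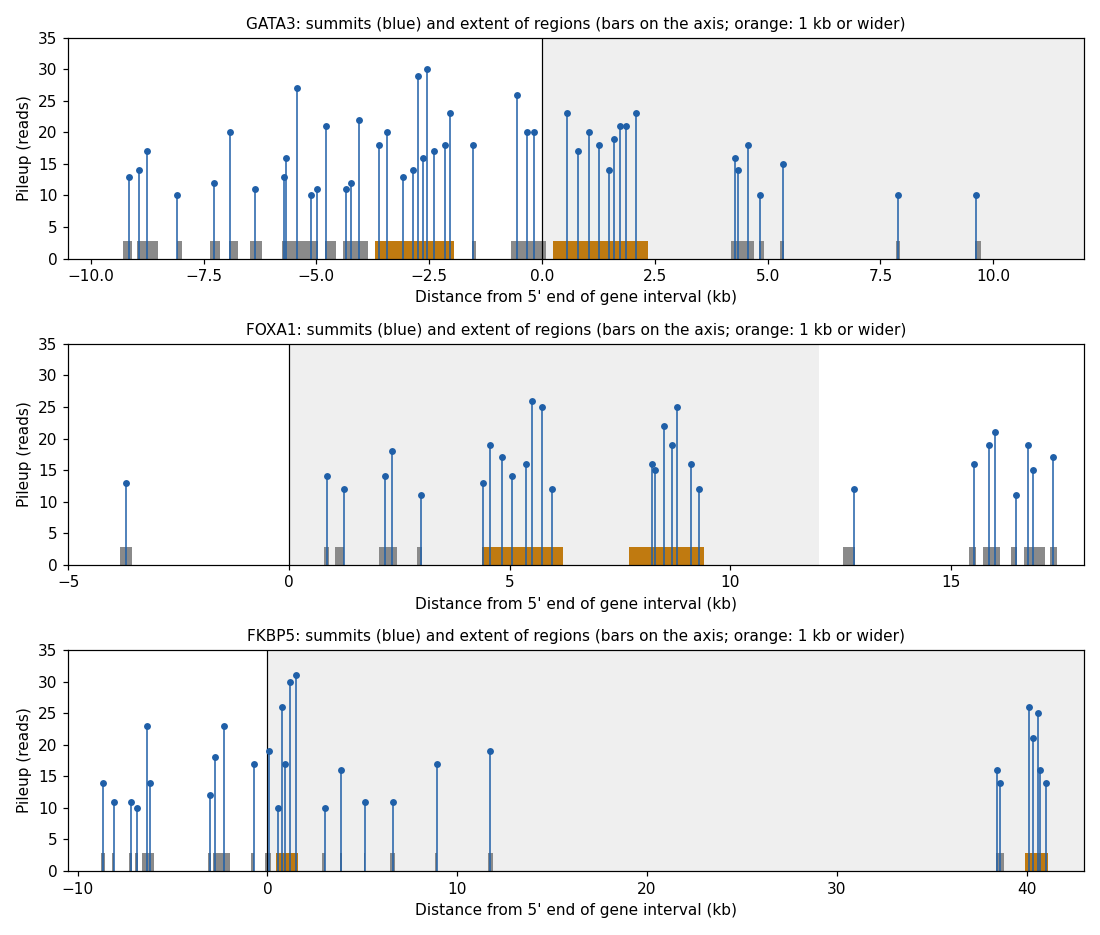
Summits (blue, pileup in reads) and extent of listed regions (bars on the axis, orange where 1 kb or wider) at GATA3, FOXA1 and FKBP5, against distance in kb from the 5' end of the interval (grey). Each gene has 2 orange regions: GATA3 on either side of its 5' end, FOXA1 within the interval, and FKBP5 at the 5' end and about 40 kb inside.

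Wide regions occurred at these 3 genes only among the 8, with 2 each. That makes 6 of 81 regions (7.41%) at 1 kb or more, against 6.07% of all listed regions, and 20 of 81 (24.7%) with 2 or more summits, against 28.2% in the list. Both shares are near the background. The median region was 213 bp wide, against 208 bp in the list.

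FKBP5, the steroid receptor target, had the tallest summit of all 8 genes and a 2-part layout. On chromosome 6 the region from 35695373 to 35696573 (1201 bp), just inside the 5' end, had 5 summits of 31, 30, 17, 26 and 10 reads. The tallest, at 35695517, had a fold of 10.6 and a −log10 q of 23.5, and 5.49% of all listed summits were as tall or taller. The other wide region, from 35655849 to 35657061 (1213 bp), had 5 summits of 14, 16, 25, 21 and 26 reads. The centres of the 2 regions lay 39.5 kb apart, and the 2 RefSeq starts of FKBP5 lie 39.7 kb apart in their own build. The 250 bases before the inner start have a GC content of 74.8% and 29 CG dinucleotides, against 57.6% and 3 before the outer start. Before the 5' end, towards ARMC12, lay 10 summits of which 2 had 20 reads or more. Some of these 10 may lie in ARMC12, which was not tested. Between 35550251 and 35655972, 106 kb or 67.8% of the interval, none was listed, and on the far side stood a summit of 12 reads at 35550251 and a summit of 10 reads 4.08 kb beyond the 3' end.

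The estrogen receptor targets GREB1 and XBP1 differed in layout. GREB1 on chromosome 2 had summits spread along its body: 12 summits in 11 regions, from 7.32 to 106 kb inside the interval, with pileups of 17, 11, 12, 17, 11, 13, 10, 16, 15, 18, 18 and 14 reads in order of position. The tallest pair, at 11758319 and 11758469 (fold 6.32, −log10 q 9.73), shared a region from 11757955 to 11758600 some 84.3 and 84.5 kb inside. Its longest stretch without a summit was 21.7 kb, the smallest share of the interval (19.9%) among the 8 genes. XBP1, a factor of the unfolded protein response, had a single summit on chromosome 22 at 29196611, 390 bp inside the 5' end, with 24 reads (fold 8.31, −log10 q 15.7) in a region of 230 bp. The other 6.61 kb of XBP1 held none.

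The 10 kb limit set the counts of several genes. With 50 kb flanks GATA3 had 78 summits in place of 50, GREB1 18 in place of 12 and XBP1 5 in place of 1, and with none GATA3 had 18, FKBP5 20 in place of 31 and FOXA1 20 in place of 29, while ESR1, PGR and PRLR kept their counts under both. The summit next outside it lay at 10.02 kb for GATA3 (12 reads, against 13 reads for the outermost inside at 9.16 kb) and at 10.6 kb for FKBP5 (11 reads, against 14 reads at 8.67 kb). For the other 6 genes the nearest summit outside stood 19.3 kb or farther from the interval.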

How the data were processed

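ATAC-seq libraries of 2 knock-down and 2 control samples were made with Tn5. The submitters' processing notes name Bowtie 1.1.2, MACS2 and hg19. MACS2's version and options, and any pooling, were not given in the sources used. The labels do not say whether replicates are separate cultures. The deposited list gives a fold (ratio of signal to background), −log10 p, −log10 q, a score that was not used, and the summit's offset from the region's start. Positions are printed counted from 1.

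Each pileup was solved as the whole number for which fold = (pileup + 1) / (background + 1) and p is the Poisson upper tail. The solver was tested on simulated data. All 139 pileups were whole within 0.02 reads, and the common background is the only measure of depth. Chromosome densities use the distance between the outermost listed regions. Windows were laid end to end, unassembled sequence included. Strands matched RefSeq's promoter table for the 7 genes it holds.

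Members and lists were chosen with earlier results of these data known. All 8 genes are named. Single summits are named as the tallest of a gene, the one nearest its 5' end and those of its widest regions, and others of ESR1, PGR, GREB1, PRLR and GATA3 after their values were seen. No test was run, since there are no values per sample. Other pathway genes were not analysed here, because no gene coordinates of the list's build were given beyond these 8. Python 3.11.15, numpy 2.4.6, pandas 2.3.3, scipy 1.17.1 and matplotlib 3.10.9 were used.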

Additional observations from a re-analysis of the deposited data

How the results depend on the processing

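The number of summits (139) was 87 with no flank, 81 with each region counted once, 74 in the 50% of summits with the highest fold and 89 without GATA3, each by construction, and stayed within 1.5 times under the other 9 alternatives. The ratio of their density to that of the list (0.967) was 0.702 with no flank, 1.497 without ESR1, 0.787 without FOXA1 and 0.642 without GATA3, and under the other 9 it stayed inside its counting interval (0.813 to 1.14). It thus lies on either side of 1 depending on which gene is counted. The median fold (5.652) was 6.151 at a −log10 q of 5 or more and 6.65 in the 50% with the highest fold, and the share at 20 reads or more (23.0%) was 31.4% and 43.2% there, all by construction. The median number of summits per gene (9.5) fell to 4.5 in the 50% with the highest fold. The 6 genes with a summit at the 5' end were 6 within 5 kb and by region overlap, 7 within 10 kb and 5 at a −log10 q of 5 or more, where PRLR had none. GATA3's count of 50 was 18 with no flank and 78 with a flank of 50 kb. No paired analysis was possible because values for single samples are not part of the list, and for that reason no replicate was left out. Sites under 10 reads are not listed, and the list is named as differential against the control, so a stretch without summits does not show closed chromatin.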

Other observations

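Neighbouring summits at FOXA1 lay a median of 280 bp apart, and 21 of 28 steps (75%) were under 500 bp. At GATA3 the median step was 236 bp, with 34 of 49 (69.4%) under 500 bp, and at FKBP5 it was 531 bp, with 15 of 30 (50%) under 500 bp. In the whole list the median step was 337 bp and 59.95% were under 500 bp. At GREB1 the median step was 4756 bp and at PRLR 4257 bp. With steps up to 3 kb joined, these 2 genes had summits alone or in groups of at most 3, where GATA3 and FOXA1 had runs. Over the 8 genes listed regions covered 9605 bp at GATA3, 7009 bp at FKBP5, 6294 bp at FOXA1, 2404 bp at GREB1, 1556 bp at PGR, 719 bp at PRLR, 532 bp at ESR1 and 230 bp at XBP1. With each region counted once GATA3 had 52.4 per 100 kb, FOXA1 40.6, FKBP5 11.4, GREB1 8.53, PGR 4.13, XBP1 3.70, PRLR 2.46 and ESR1 0.922. With the same 10 kb flanks, that is the same order as with every summit counted.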
